A study of Brassica napus with 6 samples.

Results

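The genes described here are those that the deposited table of rapeseed (Brassica napus) silique walls places in the metabolism of ethylene, cytokinin, abscisic acid, jasmonate, brassinosteroid or salicylic acid. They were chosen by the functional class given in the table, leaving out genes in the first 6 Mb of chromosomes A02 and C02, and numbered 41 of the 3248 genes listed. RNA was taken from the wall of the silique (the pod) 15 days after flowering. The long pool mixed equal amounts of wall from 12 long-silique accessions and the short pool from 11 short-silique accessions, all lines of an association population, and 3 libraries stand for each pool. A pool is 1 mixture, and no label ties its libraries to separate plants, so the p-values reflect the spread between libraries alone, which may be technical. Every listed gene had been called different between these same pools by the authors, and genes outside that list were not analysed here.

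Plant hormones are small molecules whose level in a tissue is set by enzymes of synthesis and of breakdown or conjugation, and whose effect runs through receptors and transcription factors. Ethylene is made from ACC (1-aminocyclopropane-1-carboxylate) by ACC oxidase, and its signal ends in ethylene response factors (ERFs). Abscisic acid comes from carotenoids, brassinosteroids from sterols and jasmonate from fatty acids, and cytokinins are adenine derivatives. In fruits, cytokinins and brassinosteroids are known for their part in cell division and growth, and ethylene, abscisic acid and jasmonate for theirs in ripening, senescence and stress.

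The 41 genes fell into 6 ACC oxidase homologs, 10 ERFs, 5 cytokinin, 10 abscisic acid, 3 jasmonate, 5 brassinosteroid and 2 salicylic acid genes. In the authors' deposited table, the log2 fold change (long over short) was below 0 for 33 and above 0 for 8, with a median of -1.36. Over all listed genes 65.6% were below 0, with a median of -1.18. The 41 genes were given 29 Arabidopsis loci, and 19 of them share 1 of 7 loci with another gene of the set, so they are not independent. All copies of each shared locus had the same direction, and by locus 22 were lower and 7 higher. Over all listed genes, 1045 loci were lower and 650 higher, and few loci held both directions. In bulk tissue, fewer cells of a type and less RNA per cell cannot be told apart.

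Most of these genes were weakly expressed. Levels are given as CPM (the count scaled to the library total), always for replicates 1, 2 and 3 in that order, and as the authors' FPKM (also scaled to gene length) where genes are compared. The recovered library totals lay between 22892442 and 30259269 reads, so that 3 counts correspond to between 0.0991 and 0.131 CPM. The low-count filter passed 28 of the 41 genes to the test, and passing depends on the pool where a gene is high. Of the 28, 20 were called, 3 higher and 17 lower in the long pool (quasi-likelihood test of edgeR, p adjusted after Benjamini-Hochberg of at most 0.05 over the 65264 genes tested by the authors, and p of at most 0.005). Of all 2574 tested genes 66.6% were called, 23.1% higher and 43.5% lower, so the share called among the hormone genes, 71.4%, was near the background. The same shares are the background for every count by class or gene list below. The pools did not overlap in CPM for any of the 28, against 97.4% of all tested genes. With TMM or DESeq2 size factors computed on the listed genes, 7 hormone genes were called, 5 higher and 2 lower.

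Senescence genes moved with the same contrast. The table listed 9 genes at 3 of 4 loci fixed as senescence markers (NAP, ORE1, SAG12 and SAG13), all 9 lower in the long pool and 7 of 8 tested called. Their summed level was 12.4 to 13.0 CPM in the long libraries against 56.3 to 73.4 CPM in the short libraries, and their part in the hormone gene results was not tested. The marker names follow the Arabidopsis locus. Genes at the ORE1 locus are described as NAC domain-containing protein 100, and those at the SAG12 locus as vignain. None of 10 seed storage loci and none of 6 fruit patterning loci was among the loci of the listed genes, so the tissue label could not be checked against them.

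**Figure D1:**
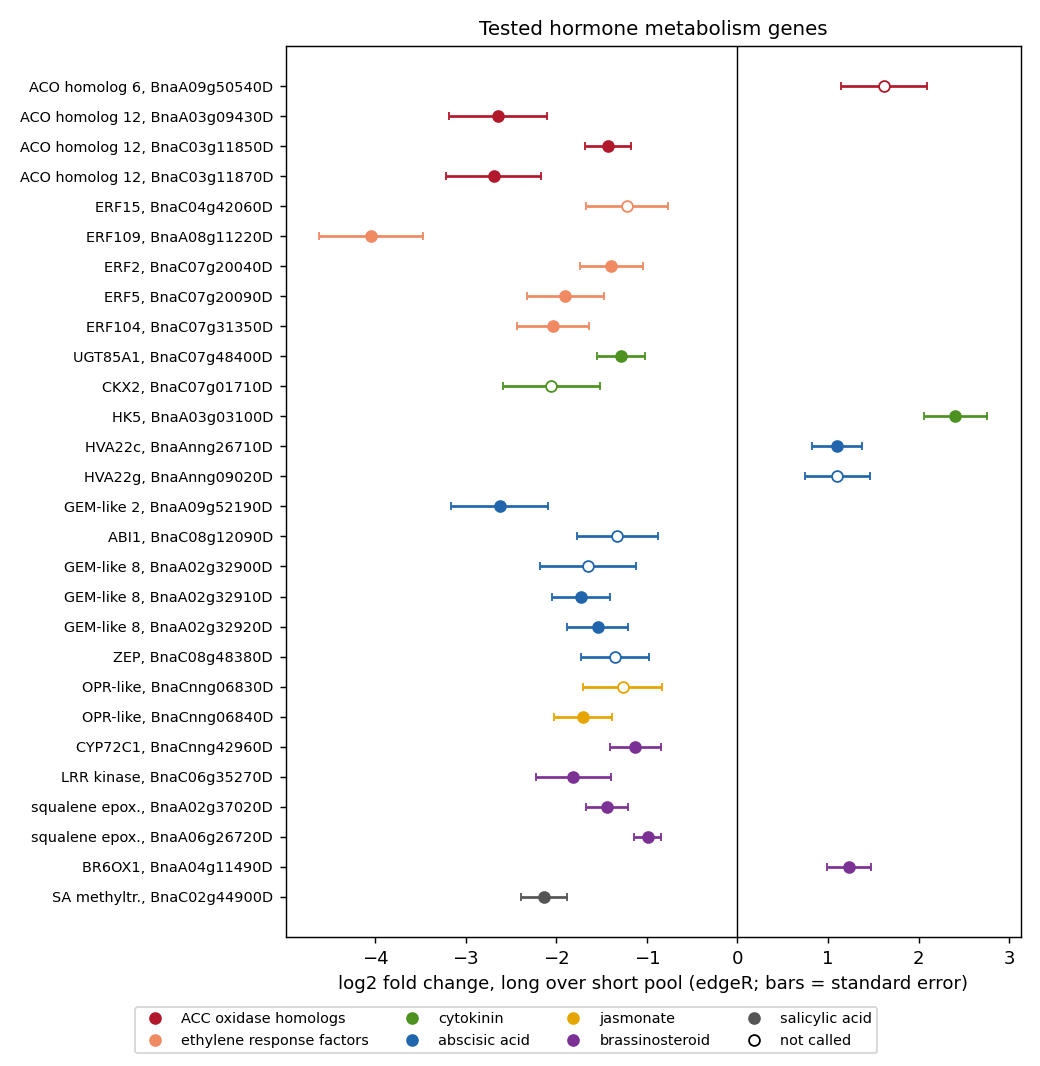
Log2 fold change, long over short pool, of the 28 tested hormone metabolism genes (edgeR; bars are standard errors; filled points passed the test, open points did not; colours mark the hormone class). Points to the right of 0 are the 5 genes higher in the long pool, with histidine kinase 5 (HK5) at 2.41, and the lowest point is an ERF109 copy at -4.04.

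The ERFs, transcription factors that carry the ethylene response and answer to wounding and pathogens, were all on the lower side in the long pool. Of the 10, 5 were tested and 4 fell, where 43.5% of all tested genes were called lower. Among all listed genes 65.6% were lower. Added up, the 10 genes stood at 1.83, 2.54 and 2.36 CPM in the long libraries and at 10.5, 8.99 and 9.04 CPM in the short libraries. The sums of the long libraries were all below those of the short libraries. Each of the 10 had been listed by the authors as lower in these same libraries, so this separation is no further evidence.

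ERF109, known in Arabidopsis as a redox-responsive factor that rises quickly after wounding, was present in 4 copies. BnaA08g11220D (A08, 10232887 to 10233918) had 1 count in each long library and 23, 17 and 17 counts in the short libraries. That is a ratio of 18.3, short over long (95% exact counting interval 5.96 to 91.4, which here and below covers counting error only), and all short libraries lay far above the long ones. Its fitted log2 fold change was -4.04 ± 0.58 (SE; by edgeR, adjusted p = 0.000455), in a gene with few counts in the long pool.

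The other 3 copies did not pass the low-count filter, and their short libraries differed from each other. BnaA01g02720D (A01, 1348475 to 1349263) had 0 counts in the long pool and 37, 12 and 0 in the short libraries, at least 15.7-fold lower if 3 counts are taken as the floor of the long pool. BnaC01g03990D (C01, 2081982 to 2082800) had 0 counts in the long pool and 25, 6 and 1 in the short libraries, at least 10.3-fold lower by the same floor. BnaC03g66140D (C03, 55883766 to 55884781) had 0, 5 and 5 counts in the long libraries and 38, 36 and 10 in the short libraries. In all 4 copies short silique replicate 1 was the highest library, and in 3 of them replicate 3 was the lowest of the short pool. For BnaA01g02720D the pools overlap, because short silique replicate 3 is also at 0. Without the low-count filter BnaC03g66140D passed the test, with a log2 fold change of -2.97 ± 0.74 (SE; by edgeR, adjusted p = 0.0470). No other untested hormone gene passed in that fit. Of the ERF109 copies, BnaC01g03990D had an adjusted p of 0.188 (edgeR), and BnaA01g02720D gave no call either.

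The order of the short libraries was not the same in the other ERFs. ERF104 (BnaC07g31350D; C07, 35474251 to 35475179), known in Arabidopsis as a target of a mitogen-activated protein kinase in immunity, stood at 0.233, 0.463 and 0.437 CPM in the long libraries against 1.18, 1.61 and 1.92 CPM in the short libraries. This gave a log2 fold change of -2.04 ± 0.40 (SE; by edgeR, adjusted p = 0.00652). ERF5 (BnaC07g20090D; C07, 26833039 to 26834118), an activator in stress responses, stood at 0.272, 0.496 and 0.481 CPM in the long libraries against 0.863, 1.98 and 1.84 CPM in the short libraries. In both genes short silique replicate 1 was the lowest of its pool, the reverse of the ERF109 copies. The fitted change of ERF5 was -1.90 ± 0.42 (SE; by edgeR, adjusted p = 0.0172). ERF2 (BnaC07g20040D; C07, 26798404 to 26799212), another activator, lies 33.8 kb from ERF5 and stood at 0.816, 1.16 and 0.699 CPM in the long libraries against 2.67, 1.54 and 2.91 CPM in the short libraries. Its log2 fold change was -1.39 ± 0.35 (SE; by edgeR, adjusted p = 0.0405), and here short silique replicate 2 was the lowest of its pool.

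The remaining ERFs gave no call. ERF12 (BnaA08g18390D), known as a repressor, had 2, 1 and 0 counts in the long libraries against 5, 10 and 7 in the short ones, a ratio of 7.07, short over long (95% exact counting interval 2.12 to 36.9). ERF13 (BnaC04g49870D) had 2 counts in each long library and 2, 14 and 13 in the short libraries, so that the pools overlap through short silique replicate 1. ERF15 (BnaC04g42060D) had a log2 fold change of -1.22 ± 0.46 (SE; by edgeR, adjusted p = 0.427).

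The call of BnaA08g11220D held in every fit that left out 1 library (adjusted p of at most 0.00982), whereas those of the other 3 called ERFs did not. That of ERF104 was lost when long silique replicate 1 was left out (-1.79 on the log2 scale, edgeR adjusted p = 0.0623). That of ERF5 ended without replicate 1 or 2 of the long or 2 or 3 of the short pool (-1.67 to -2.06, adjusted p = 0.0644 to 0.149, edgeR). That of ERF2 ended in every such fit but the one without short silique replicate 2 (-1.22 to -1.64, adjusted p = 0.0706 to 0.235, edgeR).

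**Figure D2:**
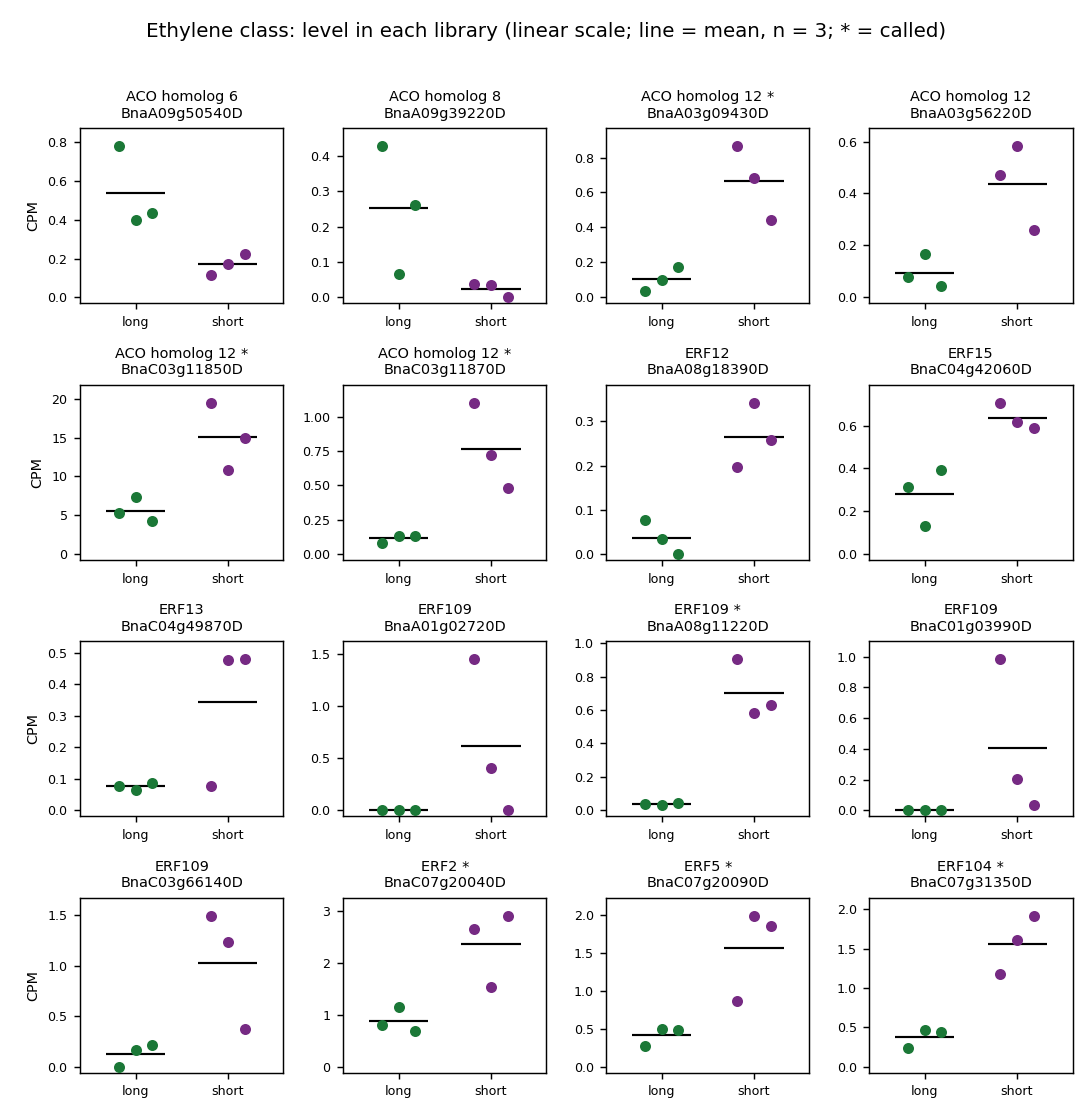
CPM of the 16 ethylene class genes in each library (linear axis, scaled per gene; points are replicates 1, 2 and 3 from left to right, lines are pool means, n = 3; an asterisk marks a call). The ERF109 panels show short silique replicate 1 on top, while in ERF5, ERF104 and ERF13 it is the lowest short library.

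The ethylene synthesis class held no ACC oxidase. All 6 genes are described as ACC oxidase homologs, dioxygenases related to it but not known to make ethylene. The 4 copies described as homolog 12 were lower in the long pool and 3 of them passed the test, whereas homologs 6 and 8 were on the higher side without a call.

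Among the homolog 12 copies, the most abundant was BnaC03g11850D (C03, 5744772 to 5746435), with a mean of 4.20 FPKM in the long and 11.4 FPKM in the short pool. It stood at 5.21, 7.27 and 4.24 CPM in the long libraries against 19.5, 10.9 and 14.9 CPM in the short libraries, with no overlap. The fitted log2 fold change was -1.43 ± 0.25 (SE; by edgeR, adjusted p = 0.00267). BnaC03g11870D (C03, 5755362 to 5757249) lies 8.93 kb further and had 2, 4 and 3 counts in the long libraries against 28, 21 and 13 in the short ones. BnaA03g09430D (A03, 4231150 to 4232601) had 1, 3 and 4 counts in the long libraries against 22, 20 and 12 in the short ones. Both weak copies had larger fitted changes than BnaC03g11850D, -2.69 ± 0.52 and -2.65 ± 0.54 (SE; by edgeR, adjusted p = 0.00603 and 0.00852), with wide errors. The fourth copy, BnaA03g56220D (A03_random, 606256 to 607379), had 2, 5 and 1 counts in the long libraries against 12, 17 and 7 in the short ones and was not tested. The call of BnaC03g11870D ended without long silique replicate 1 (-2.49, edgeR adjusted p = 0.0643). That of BnaA03g09430D ended without replicate 1 or 2 of the long or 1 of the short pool (-2.28 to -2.62, adjusted p = 0.0566 to 0.0882, edgeR).

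The pair on the higher side was weak. Homolog 8 (BnaA09g39220D; A09, 27825494 to 27826995) had 11, 2 and 6 counts in the long libraries against 1, 1 and 0 in the short ones, a ratio of 9.86, long over short (95% exact counting interval 2.38 to 87.3). Homolog 6 (BnaA09g50540D; A09, 33415700 to 33417628) stood at 0.777, 0.397 and 0.437 CPM in the long libraries against 0.118, 0.171 and 0.221 CPM in the short libraries, with a log2 fold change of 1.62 ± 0.48 (SE; by edgeR, adjusted p = 0.112).

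The table gives no Arabidopsis locus or class to 6 more ACC oxidase homologs and to 1 gene described as ACC oxidase 5. All 6 homologs had a negative fold change, and 3 of the 5 tested fell. The untested BnaA03g56210D, described as homolog 11, spans 247 bases and ends 0.088 kb before the homolog 12 copy BnaA03g56220D. Whether these are parts of 1 gene was not tested. Of the homolog 2 genes, BnaC05g04560D had a fitted change of -2.70 and BnaA10g04340D one of -1.65 on the log2 scale (edgeR adjusted p = 0.000231 and 0.00136). Homolog 1, BnaA10g04330D, lies 0.537 kb from the latter and had one of -1.40 (edgeR adjusted p = 0.0326). A homolog 11, BnaC03g11830D, lies 4.09 kb from the homolog 12 copy BnaC03g11850D and had a log2 fold change of -1.11 ± 0.29 (SE; by edgeR, adjusted p = 0.0566). ACC oxidase 5 (BnaCnng60040D; Cnn_random, 59871711 to 59873145), an enzyme that makes ethylene, stood at 0.272, 0.165 and 0.218 CPM in the long libraries against 1.18, 0.820 and 0.516 CPM in the short libraries. This gave a log2 fold change of -1.93 ± 0.48 (SE; by edgeR, adjusted p = 0.0391). Another gene, BnaA03g45910D, is described after an ACC oxidase of Dictyostelium but classed by the table with gibberellin synthesis and had 35 counts in the long pool against 10 in the short one. Of a list of 26 Arabidopsis loci of ethylene synthesis and signalling, with ACC synthases, ACC oxidases, receptors and EIN3, none was among the loci of the listed genes, since ACC oxidase 5 has no locus in the table.

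Cytokinin genes included the largest fitted rise among the 28 tested hormone genes. BnaA03g03100D (A03, 1487701 to 1490879), described as HK5, stood at 3.26, 2.21 and 2.71 CPM in the long libraries against 0.432, 0.684 and 0.406 CPM in the short libraries, with no overlap. Its log2 fold change was 2.41 ± 0.35 (SE; by edgeR, adjusted p = 0.000531). The table classes HK5, a histidine kinase, with cytokinin signalling, but in Arabidopsis it is not one of the cytokinin receptors and is known for roles in hydrogen peroxide signalling in guard cells. Its call held in each of the 12 alternative fits.

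The genes of cytokinin synthesis, conjugation and breakdown were on the lower side. UGT85A1 (BnaC07g48400D; C07_random, 1000571 to 1002159), which attaches glucose to zeatin, stood at 1.94, 2.81 and 1.97 CPM in the long libraries against 6.83, 5.13 and 4.54 CPM in the short libraries. It had a log2 fold change of -1.29 ± 0.27 (SE; by edgeR, adjusted p = 0.0102). This call ended without replicate 1 or 3 of the long or 1 of the short pool (-1.10 to -1.20, adjusted p = 0.0521 to 0.0920, edgeR). The cytokinin oxidase gene CKX2 (BnaC07g01710D; C07, 2422452 to 2425861), whose product degrades cytokinin, stood at 0.0389, 0.0661 and 0.218 CPM in the long libraries against 0.471, 0.444 and 0.406 CPM in the short libraries. Its log2 fold change of -2.06 ± 0.53 (SE) just missed the threshold (edgeR adjusted p = 0.0508) and passed it without long silique replicate 3 (-2.94, edgeR adjusted p = 0.0183), the highest long library. CKX2 passed in none of the other fits that left out 1 library (adjusted p up to 0.417, edgeR).

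The synthesis gene IPT3, which makes the first cytokinin precursor from adenine nucleotides, was present in 2 copies with few reads. BnaA09g55640D (A09_random, 3347665 to 3348952) had 1, 0 and 2 counts in the long libraries against 8, 9 and 7 in the short ones. BnaCnng56440D (Cnn_random, 56350398 to 56351686) had 1 count in each long library and 12, 6 and 6 in the short libraries. Both totals were 3 against 24, a ratio of 7.71, short over long (95% exact counting interval 2.34 to 40.0), and neither copy was tested. BnaA09g55640D lies 64.8 kb from the CYP78A9 copy BnaA09g55530D on the same random scaffold, where closeness need not be closeness on the chromosome.

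Other cytokinin genes of the table act at the next step. Of a list of 34 cytokinin loci, 5 listed genes at 4 loci lay outside the class, and all are LOG genes, whose enzymes release the active cytokinin. LOG5 (BnaC01g03350D) rose from 2.91 ± 0.0970 to 7.35 ± 0.937 CPM (SD, n = 3), a log2 fold change of 1.34 ± 0.22 (SE; by edgeR, adjusted p = 0.00182). LOG1 (BnaC04g15990D) and a second gene at the LOG5 locus (BnaC03g65410D) fell, by 1.66 and 1.22 on the log2 scale (edgeR adjusted p = 0.0167 and 0.0387). LOG7 (BnaC02g02030D) had a log2 fold change of 1.52 ± 0.48 (SE; by edgeR, adjusted p = 0.169) and LOG8 (BnaC02g04120D) had 23 counts in the long pool against 3 in the short one. Both lie in the first 6 Mb of C02. The genes of this family thus had changes in both directions.

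Abscisic acid genes were mixed. Of the 10, 4 were on the higher and 6 on the lower side; 8 were tested, 1 rose and 3 fell. Core genes of synthesis or signalling were 3 of the 10, and none of them was called; the other 7 are described as HVA22-like or GEM-like proteins.

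Of the core genes, zeaxanthin epoxidase (BnaC08g48380D; C08_random, 3344799 to 3346706), which acts early in abscisic acid synthesis, stood at 0.686 ± 0.165 CPM in the long pool against 1.74 ± 0.682 CPM in the short pool (SD, n = 3). The fitted log2 fold change was -1.35 ± 0.38 (SE; by edgeR, adjusted p = 0.0841). Of the fits that left out 1 library, it passed only without short silique replicate 2, the lowest short library (-1.57, edgeR adjusted p = 0.0373). In the others the adjusted p reached 0.725 (edgeR). ABI1 (BnaC08g12090D; C08, 17320309 to 17321941), a phosphatase that blocks the signal, had a log2 fold change of -1.33 ± 0.45 (SE; by edgeR, adjusted p = 0.246). NCED3 (BnaC05g39190D; C05, 37758388 to 37759155), which cleaves the carotenoid precursor, had 0, 18 and 9 counts in the long libraries against 1, 0 and 0 in the short ones. The NCED3 ratio was 28, long over short (95% exact counting interval 4.62 to 1147), but the pools overlap, since long silique replicate 1 is at 0.

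GEM-like genes, whose proteins carry a GRAM domain and are related to an Arabidopsis regulator of root hair patterning, were the lower abscisic acid genes with a call. On A02 the table lists 3 copies of GEM-like protein 8 side by side, from 23602210 to 23610412, with gaps of 2.99 and 2.82 kb. BnaA02g32910D stood at 1.09, 0.826 and 1.005 CPM in the long libraries against 4.43, 2.91 and 2.36 CPM in the short libraries. BnaA02g32920D stood at 0.661, 0.793 and 0.612 CPM in the long libraries against 2.28, 2.22 and 1.59 CPM in the short libraries. In both genes short silique replicate 1 was the highest and replicate 3 the lowest of its pool, and the pools did not overlap. The log2 fold changes of the 3 copies lay within 1 SE of each other, -1.73 ± 0.32 for BnaA02g32910D, -1.54 ± 0.34 for BnaA02g32920D and -1.65 ± 0.53 for the weak BnaA02g32900D (SE; by edgeR, adjusted p = 0.00442, 0.0147 and 0.194). GEM-like protein 2 (BnaA09g52190D; A09_random, 301591 to 303186) had 1, 4 and 3 counts in the long libraries against 14, 14 and 25 in the short ones, with a log2 fold change of -2.63 ± 0.53 (SE; by edgeR, adjusted p = 0.00867). The call of BnaA02g32920D ended without any 1 long library or without short silique replicate 1 (-1.46 to -1.66, adjusted p = 0.0532 to 0.0829, edgeR). That of BnaA09g52190D ended when long silique replicate 1, or else replicate 3 of the short pool, was left out (-2.26 and -2.29, edgeR adjusted p = 0.0886 and 0.0507).

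HVA22-like genes, which encode membrane proteins named after a barley gene induced by abscisic acid, were on the higher side in the long pool. HVA22c (BnaAnng26710D; Ann_random, 30640071 to 30641232) stood at 3.19, 2.71 and 2.62 CPM in the long libraries against 1.37, 1.26 and 1.33 CPM in the short libraries. Its log2 fold change of 1.10 ± 0.28 (SE) passed the test (edgeR adjusted p = 0.0434) with all 6 libraries and in none of the fits that left out any 1 of them (1.01 to 1.15, adjusted p = 0.0860 to 0.205, edgeR). The HVA22g copy BnaAnng09020D had the same fitted change with a wider error, 1.10 ± 0.36 (SE; by edgeR, adjusted p = 0.217), and the other copy, BnaCnng67550D, had 8, 9 and 15 counts in the long libraries against 2, 2 and 4 in the short ones.

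Outside the class, 4 listed genes at 3 of 39 abscisic acid loci gave no call. The exporter ABCG25 had log2 fold changes of -1.96 ± 0.53 in BnaCnng07730D and -1.40 ± 0.48 in BnaC02g20910D (SE; by edgeR, adjusted p = 0.0629 and 0.266). CYP707A3 (BnaAnng05520D), which breaks abscisic acid down, had 7 counts in the long pool against 29 in the short one. The receptor gene PYL8 (BnaA02g10420D), in the first 6 Mb of A02, had 28 and 7.

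Jasmonate genes were all on the lower side in the long pool, and 1 of 3 fell. BnaCnng06840D (Cnn_random, 5855956 to 5857293), described as an OPR-like protein, a relative of the reductase of jasmonate synthesis, stood at 0.894, 0.793 and 1.14 CPM in the long libraries against 2.51, 3.96 and 2.69 CPM in the short libraries. This gave a log2 fold change of -1.71 ± 0.32 (SE; by edgeR, adjusted p = 0.00424). BnaCnng06830D, given the same Arabidopsis locus, spans 249 bases and ends 89 bases before it, and whether both are parts of 1 gene was not tested. Its change was -1.27 ± 0.44 (SE; by edgeR, adjusted p = 0.271). AOC2 (BnaC09g52570D), an allene oxide cyclase of jasmonate synthesis, had 2, 2 and 1 counts in the long libraries against 3, 8 and 12 in the short ones and was not tested.

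Genes of jasmonate signalling or inactivation outside the class also lay mostly on the lower side. Of a list of 33 jasmonate loci, 8 such genes at 6 loci were listed, 1 higher and 7 lower, and of the 4 tested 2 fell. Over all listed genes 65.6% were lower, and 43.5% of all tested genes were called lower, so the calls were near the background. JAZ1 (BnaA06g13250D) and JAZ5 (BnaC08g48340D), which repress the response and are themselves induced by jasmonate, had log2 fold changes of -1.89 ± 0.35 and -1.40 ± 0.34 (SE; by edgeR, adjusted p = 0.00386 and 0.0335). JAZ9 (BnaA07g23750D) had one of 1.37 ± 0.36 (SE; by edgeR, adjusted p = 0.0571). The JAZ7 genes BnaC03g19040D and BnaA03g15910D and the JAZ10 gene BnaC03g71460D were lower in the long pool, without a call. Of the 2 listed copies of CYP94B3, which inactivates the hormone, BnaC08g48490D had 0, 2 and 0 counts in the long libraries and 24, 11 and 1 in the short libraries. The other, BnaA06g16470D, had 0, 0 and 1 counts in the long libraries and 15, 8 and 0 in the short libraries. In both copies the pools overlap through short silique replicate 3, and short silique replicate 1 is the highest library.

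Brassinosteroid genes went in both directions, and all 5 were tested and called, where 66.6% of all tested genes were called. BR6OX1 (BnaA04g11490D; A04, 9939474 to 9942138), a cytochrome P450 of the last steps of brassinosteroid synthesis, rose. It stood at 8.94, 9.12 and 12.4 CPM in the long libraries against 4.75, 5.26 and 2.95 CPM in the short libraries, with a log2 fold change of 1.23 ± 0.24 (SE; by edgeR, adjusted p = 0.00727). CYP72C1 (BnaCnng42960D; Cnn_random, 42107696 to 42110772), a P450 known to lower brassinosteroid levels when overexpressed in Arabidopsis, fell. It stood at 1.28, 1.52 and 1.57 CPM in the long libraries against 3.88, 2.87 and 2.84 CPM in the short libraries, with a log2 fold change of -1.13 ± 0.28 (SE; by edgeR, adjusted p = 0.0377). The call of CYP72C1 ended in every fit that left out 1 library (-0.97 to -1.21, adjusted p = 0.0536 to 0.200, edgeR). BR6OX1 kept its call in these fits (adjusted p of at most 0.0495, edgeR). With the replicate number as a block in the fit, both calls ended, and that of CYP72C1 also ended with TMM or DESeq2 size factors. What these changes mean for the level of the hormone was not tested.

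The genes described as squalene epoxidases, which share an Arabidopsis locus and are classed with sterols, fell. Whether their products act in sterol synthesis was not tested. BnaA06g26720D (A06, 18341302 to 18345719) was by far the most abundant of the 41 genes, at a mean of 32.8 FPKM in the long and 65.1 FPKM in the short pool. Its levels were 89.2, 79.9 and 105 CPM in the long libraries against 192, 181 and 171 CPM in the short ones, and its log2 fold change was -0.99 ± 0.15 (SE; by edgeR, adjusted p = 0.000598). BnaA02g37020D (A02_random, 1541702 to 1547395) stood at 6.53, 5.35 and 4.54 CPM in the long libraries against 19.3, 11.3 and 14.1 CPM in the short libraries. It had a log2 fold change of -1.44 ± 0.23 (SE; by edgeR, adjusted p = 0.00124), and both genes kept their calls in each fit without 1 library. BnaC06g35270D (C06, 34312342 to 34316477) is classed with the brassinosteroid receptor BRI1 but described only as a probable leucine-rich repeat receptor kinase. It stood at 0.505, 0.264 and 0.306 CPM in the long libraries against 1.37, 0.991 and 1.44 CPM in the short libraries, a log2 fold change of -1.81 ± 0.41 (SE; by edgeR, adjusted p = 0.0207). This call ended without replicate 2 or 3 of the long or 1 or 3 of the short pool (-1.62 to -1.75, adjusted p = 0.0833 to 0.138, edgeR).

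Salicylic acid genes were both on the lower side, and the only tested one had the smallest p of the 28 tested hormone genes. BnaC02g44900D (C02_random, 700731 to 702576) is described as a salicylate/benzoate carboxyl methyltransferase, after an enzyme that turns salicylic acid into a volatile ester. It was given a different Arabidopsis locus from the salicylate methyltransferase gene BSMT1, and whether it methylates salicylic acid was not tested. It stood at 1.55, 1.62 and 1.35 CPM in the long libraries against 7.89, 5.74 and 6.42 CPM in the short libraries. Its log2 fold change was -2.14 ± 0.26 (SE; by edgeR, adjusted p = 0.000111), and its call held in each of the 12 alternative fits. UGT74F2 (BnaC04g03110D; C04, 2262850 to 2264462), which attaches glucose to salicylic acid, had 0, 0 and 1 counts in the long libraries against 13, 3 and 10 in the short ones, a ratio of 25.1, short over long (95% exact counting interval 4.12 to 1027). Of 18 salicylic acid loci, 1 other listed gene, BnaA06g27000D at the locus of DMR6, which in Arabidopsis hydroxylates salicylic acid, fell from 22.7 ± 3.18 to 9.80 ± 0.372 CPM (SD, n = 3; edgeR adjusted p = 0.000705).

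**Figure D3:**
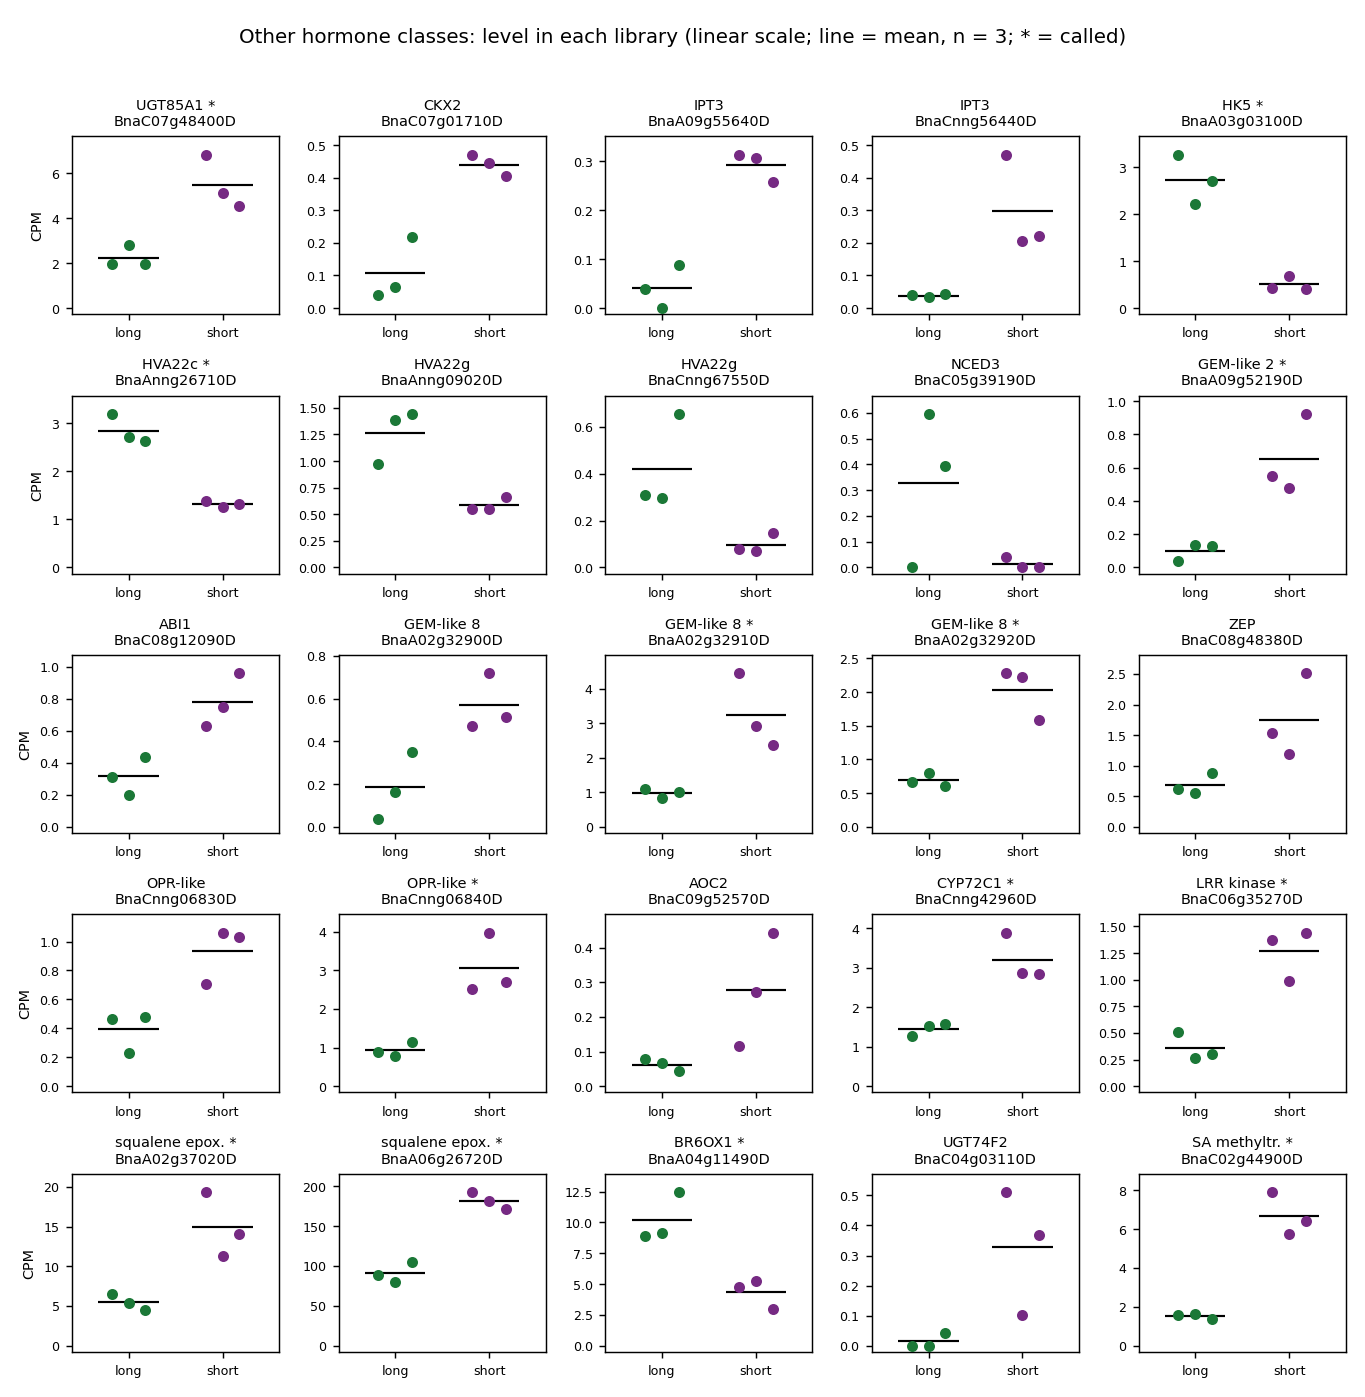
CPM of the 25 cytokinin, abscisic acid, jasmonate, brassinosteroid and salicylic acid genes in each library (linear axis, scaled per gene; points are replicates 1, 2 and 3 from left to right, lines are pool means, n = 3; an asterisk marks a call). The long libraries lie above the short ones in HK5, BR6OX1 and the HVA22-like genes, and NCED3 has 1 long library at 0.

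The position limit left out 2 genes of these classes. GEM-like protein 5 (BnaA02g01510D; A02, 693414 to 695117) stood at 3.78 ± 0.107 CPM in the long pool against 8.05 ± 0.820 CPM in the short pool, and CPD (BnaC02g02210D; C02, 973191 to 976294), a brassinosteroid synthesis gene, at 0.511 ± 0.0996 and 0.175 ± 0.132 CPM (SD, n = 3). Of the genes kept, 3 are placed on A02, the GEM-like protein 8 copies, and none on C02. The squalene epoxidase gene BnaA02g37020D and the methyltransferase gene BnaC02g44900D are on random scaffolds of these chromosomes, where the position limit could not be applied.

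The scaling decides how many genes fall and how many rise. With TMM over the listed genes, which assumes that most genes do not differ, all log2 fold changes moved up by a median of 0.78, and with DESeq2 size factors by 0.93. A list chosen by the authors for differences does not meet that assumption. All 28 tested genes kept their direction under both scalings, while the calls of 15 genes, all lower in the long pool, ended. The 2 that remained lower were the ERF109 copy BnaA08g11220D and the methyltransferase BnaC02g44900D. HVA22g (BnaAnng09020D) and homolog 6 (BnaA09g50540D) became higher with a call, at 1.88 and 2.39 (edgeR, TMM, adjusted p = 0.00482 and 0.00805).

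**Figure D4:**
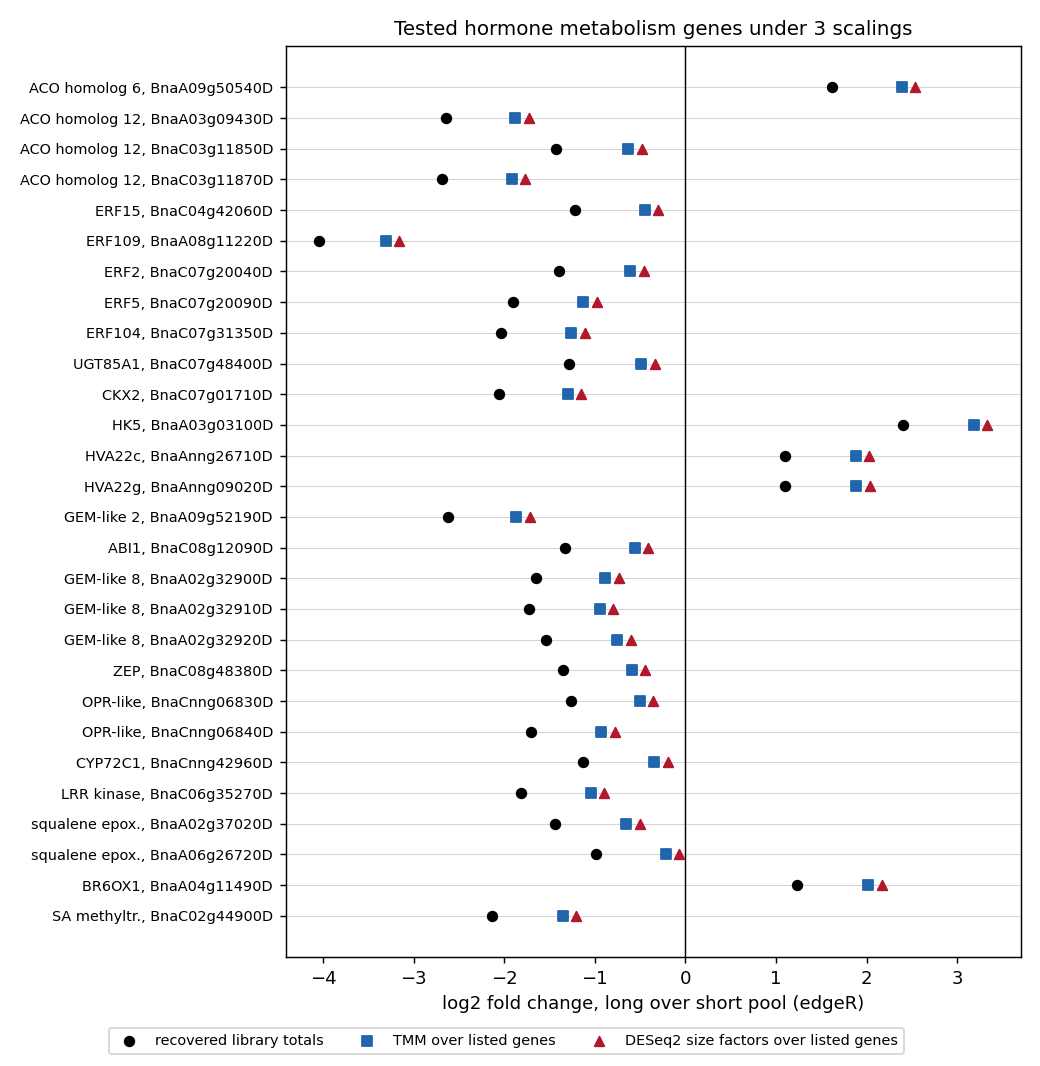
Log2 fold change, long over short pool, of the 28 tested hormone metabolism genes under recovered library totals (circles), TMM over the listed genes (squares) and DESeq2 size factors over the listed genes (triangles). All points shift to the right by about the same amount, and the squalene epoxidase gene BnaA06g26720D moves from -0.99 to -0.21 and -0.07.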

How the data were processed

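The authors deposited a single table, and per the file headers it holds for each gene its counts, FPKM, a log2 fold change, a p-value and an FDR. Per the series design text, filtered reads were mapped to the Darmor genome and uniquely mapped reads were counted. No aligner or genome release is named in the sources used here, and the submitters' processing notes list edgeR and DESeq2 without versions. The deposited counts are whole reads per gene, the deposited FPKM were scaled by the authors to length and library total, and the deposited log2 fold changes and p-values are the authors' own comparison. There were 3248 genes and 59362 blank rows; no gene had a deposited FDR above 0.0499 or a deposited log2 fold change smaller in size than 1.

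Library totals, used as library sizes, were recovered from the ratio of count to FPKM and gene span (genes of 200 counts and 5 FPKM or more, median within 0.5% of the 95th percentile). Deposited FDR and p together give 65264 as the number of genes tested by the authors. All listed genes entered edgeR 4.0.16 (R 4.3.3, robust quasi-likelihood) after filterByExpr, without covariates. A standard error is the size of the log2 fold change over the root of F. Exact counting intervals leave out the spread between libraries. Between libraries of a pool, counts of the listed genes differed with a chi-square per gene of 4.32 to 7.18, more than counting error gives. All genes behind the estimate of the spread had been selected for a difference, so p-values may be too small, and near-identical copies may share reads. Alternatives were DESeq2 1.42.0, other scalings, no filter, a replicate block, adjustment over the tested genes and each library left out. The members, gene lists, tests and the rule for named genes were chosen with earlier results of these data known. By that rule every member is named, with values per library for called members and for members with at most 3 counts in 1 pool. Of the gene IDs, 0 matched the RefSeq table. Names of the members were read from the descriptions in the deposited table. Genes found through the gene lists were named by their Arabidopsis locus, and their descriptions can differ from that name.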

Additional observations from a re-analysis of the deposited data

How the results depend on the processing

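The 20 calls became 7 under TMM and 7 under size factors of DESeq2 (5 higher and 2 lower in both), and 12 with the replicate block (1 higher, 11 lower). By class, these 3 fits called 1, 1 and 1 ACC oxidase homologs against 3, 2, 2 and 2 abscisic acid genes against 4, and 1, 1 and 2 brassinosteroid genes against 5. The TMM and DESeq2 size factor fits called 1 ERF each against 4, 1 cytokinin gene each against 2 and 0 jasmonate genes each against 1. Over all listed genes they called 916 and 915 higher against 594, and 330 and 278 lower against 1119. The median log2 fold change over all tested listed genes was -1.22 with the recovered totals, -0.44 under TMM and -0.29 under size factors. The replicate numbers of the titles need not pair the libraries: deviations of same-numbered libraries correlated at 0.0059 to 0.041, so the loss of calls under the block is no measure of a weaker effect.

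Leaving out 1 library called 10 to 18 hormone genes (2 higher in each fit, 8 to 16 lower), 1 to 3 homologs, 1 to 4 abscisic acid genes, 3 to 4 brassinosteroid genes, 1 to 2 cytokinin genes, 1 to 3 ERFs, 1 jasmonate and 1 salicylic acid gene, with fewer samples. Over all listed genes it called 1135 to 1424, 385 to 489 higher and 738 to 935 lower. Of the 20 calls, 9 held in all 6 of these fits. In the DESeq2 Wald test and without a filter the same 20 genes kept their calls. No direction of a tested hormone gene turned in any of the 12 alternatives. Genes with under 10 counts per library on average, 14 of the 41, cannot show changes of this size reliably.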
